A study of Caenorhabditis elegans with 24 samples.

Results

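Emerin contacts of chromatin were compared between Caenorhabditis elegans larvae that carried the Y59C form of lamin together with the cec-4(ok3124) deletion and larvae that carried wild-type lamin with cec-4 intact. The comparison used 12 of the 24 libraries of the series, which form 6 of its 12 pairs of a Dam-EMR and a GFP-Dam library. The libraries were chosen by strain and replicate number. For each strain and each of 3 rounds, the reads of the Dam-EMR library in a bin were divided by those of the GFP-Dam library of the same round, and the log2 ratio was set to 0 at the median nuclear bin of the pair. The change is the Y59C cec-4 value minus the wild-type lamin value. The question was whether the combination returns to the wild-type profile, so the Y59C strain with intact cec-4 is given beside it.

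All strains expressed a GFP-tagged lamin: GFP::LMN-1 in the reference strains and GFP::LMN-1(Y59C) in the strains with and without cec-4 to which they were compared. The reference is therefore not an untagged animal. Each Dam fusion was expressed from the hsp-16.41 heat shock promoter without induction, after recombination by a FLP enzyme under the myo-3 promoter, which is active in muscle. The samples are labelled as body wall muscle of L3/L4 larvae grown for 26 h at 22.5 °C on Dam-negative bacteria, whereas the design text names intestine. The Dam-EMR and GFP-Dam libraries of a pair came from separate strains, 1 strain for each fusion and genotype. The 3 rounds were biological replicates in which all strains were grown in parallel.

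In DamID, a DNA adenine methyltransferase (Dam) fused to a protein methylates GATC sites near that protein, and the methylated fragments are amplified and sequenced. EMR-1 is the worm emerin, a LEM-domain protein of the inner nuclear membrane, and freely diffusing GFP-Dam reads accessible chromatin. LMN-1 is the only lamin of the worm. CEC-4 is a chromodomain protein of the nuclear envelope that binds methylated lysine 9 of histone H3 and anchors heterochromatin, which is concentrated on the arms of the autosomes. The Y59C lamin models a mutation of Emery-Dreifuss muscular dystrophy, a disease in which emerin is the other well-known affected protein.

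Depth was uneven. The Dam-EMR libraries of wild-type lamin held 903342, 547403 and 3121227 reads in rounds 1 to 3, and those of Y59C cec-4 held 210085, 4282156 and 3117013. The 6 GFP-Dam libraries held between 2728741 and 16650515 reads. In the shallowest library, Dam-EMR of Y59C cec-4 in round 1, the median 100 kb bin held 120 reads. A few bins took a large share of the reads. The last bin of chromosome I (from 15000001) held 5.85% to 30.0% of each of the 12 libraries. The bin at III 6700001 held 20.9% of GFP-Dam of Y59C cec-4 in round 3 and 0.142% to 0.348% of every other library compared here. The bin at V 8600001 held 22.7% of Dam-EMR of Y59C cec-4 in round 1 and 4.35% of Dam-EMR of wild-type lamin in the same round. In the 6 GFP-Dam libraries, the median body wall muscle marker stood at 14.5 times the median 10 kb bin (range 9.69 to 24.6 over libraries), from 0.375 times for unc-27 to 122 times for unc-54, the main muscle myosin. The median intestine marker stood at 1.04 times, the neuronal marker at 1.46 times, the hypodermal marker at 2.11 times, the pharyngeal muscle marker at 1.39 times and the germline marker at 0.751 times.

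At 100 kb resolution no bin passed the test for a difference between Y59C cec-4 and wild-type lamin. Of 1004 tested bins, 0 (0%) passed an adjusted p of 0.05 in edgeR's quasi-likelihood test, which compares the quotient of the fusions between the strains. An unadjusted p under 0.05 was reached by 17 bins (1.69%), 10 higher and 7 lower in the combination, and the smallest adjusted p was 0.992. DESeq2 and limma called 0 bins as well, with 20 and 12 bins at an unadjusted p under 0.05. The fitted log2 changes had a median of -0.01 and a median absolute deviation of 0.32, and 90% of the bins lay between -0.62 and 0.78. A change of over 2-fold was estimated for 31 bins.

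These counts do not show that the profiles are alike. The median standard error of a bin's log2 change was 0.44, and the 95% interval of the median bin reached 0.91 to either side. In 322 bins (32.1%) the whole interval lay within 2-fold, so that only for these bins is a change of that size outside the interval. The share was 25.3% of the 546 autosomal arm bins, 42.1% of the 280 autosomal centre bins and 37.1% of the 178 X bins. In 1 bin the interval lay wholly beyond 2-fold, the bin at III 6700001 (isw-1, a chromatin remodelling ATPase), which held the excess of reads in 1 GFP-Dam library. The centred ratios of the combination there were -0.27, 0.89 and -6.98, against -0.22, 0.36 and 0.18 for wild-type lamin. Since each library was made from many animals, contact in fewer cells and weaker contact in each cell cannot be told apart.

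The comparison of Y59C with wild-type lamin, which uses the same wild-type libraries, also gave 0 calls among the 1004 bins (0%) with edgeR, DESeq2 and limma, with 37, 44 and 20 bins at an unadjusted p under 0.05. Its fitted changes had a median absolute deviation of 0.43, and 67 bins were estimated beyond 2-fold. The comparison of Y59C cec-4 with Y59C gave 0 calls with the 3 tools (0%), with 50, 56 and 32 bins at an unadjusted p under 0.05, and a median absolute deviation of 0.44. At this bin size there was thus no called change of the Y59C strain from which a return could be measured. The 3 comparisons share libraries pairwise, and the differences between their spreads were not tested.

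**Figure D1:**
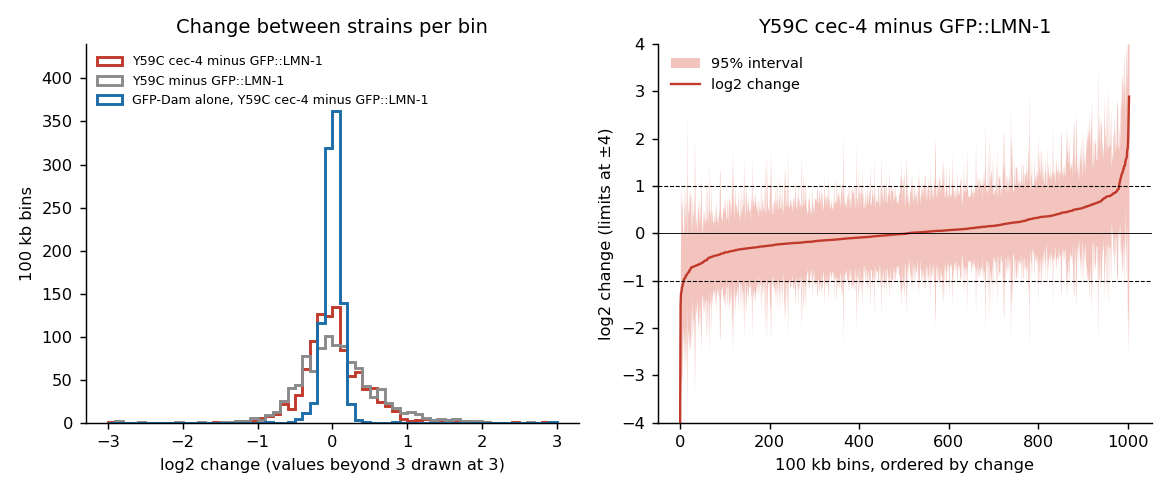
Left, the number of 100 kb bins (y axis) by fitted log2 change (x axis) for the Dam-EMR over GFP-Dam ratio in 2 strain comparisons and for GFP-Dam alone; the GFP-Dam changes have a median absolute deviation of 0.09, the ratio of the combination 0.32 and that of Y59C 0.43. Right, the 1004 bins ordered by their change between Y59C cec-4 and GFP::LMN-1 (line) with the 95% interval of each (band); dashed lines mark a 2-fold change, and the band of 322 bins lies between them.

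The 2 fusions were also tested apart, as contrasts of the same edgeR fit. GFP-Dam alone differed little between the strains: 0 of 1004 bins were called (0%), 1 bin, the one with the excess of reads, had an unadjusted p under 0.05, the median absolute deviation was 0.09, and 813 bins (81.0%) had an interval within 2-fold. Dam-EMR alone had 0 called bins (0%), 63 bins at an unadjusted p under 0.05 and a median absolute deviation of 0.31. The fit gave each bin a single estimate of spread for both fusions, and the median standard error was 0.31 for either. The p-values and intervals of a fusion, and those of the ratio, thus rest on a spread pooled over the fusions. The change of Dam-EMR alone was thus about as widely spread as that of the ratio, and the Dam-EMR libraries were mostly the shallower ones. DESeq2 called 1 bin for Dam-EMR alone, with 75 at an unadjusted p under 0.05, and 0 for GFP-Dam alone, with 0 at that level. Fitted separately with limma, the fusions had 0 called bins each, with 10 and 7 bins at an unadjusted p under 0.05.

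Along the chromosomes, the mean profiles of both strains had the same outline in chromosomes I, II and V, with ratios above 0 towards parts of the arms and below 0 in the centre. In the segment from 80 to 90% of the length of chromosome V the wild-type lamin pairs stood at 0.38, 1.14 and 0.16 in rounds 1 to 3 and the Y59C cec-4 pairs at 1.76, -0.17 and 0.15. The groups overlapped, and the order of the strains turned between rounds 1 and 2. The segment from 10 to 20% of chromosome II did the same, with 0.32, 0.77 and -0.07 for wild-type lamin and 1.88, -0.25 and 0.25 for the combination. From 50 to 60% of chromosome V, at its centre, all 6 pairs were below 0, from -0.47 to -0.09.

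**Figure D2:**
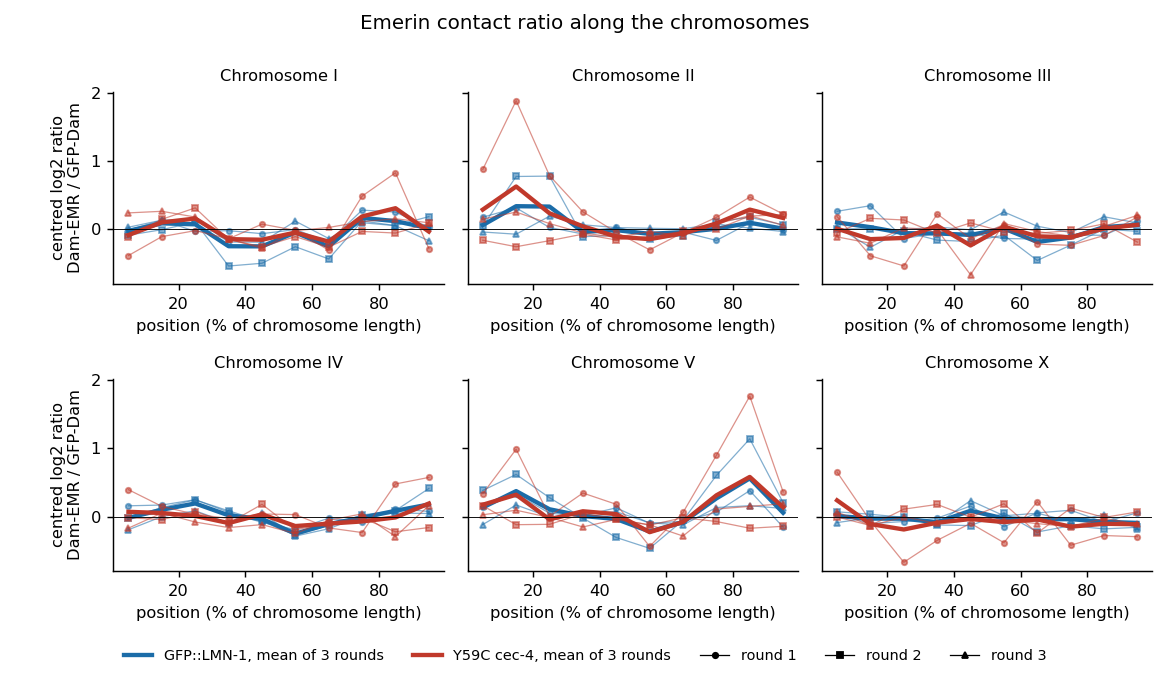
Mean centred log2 ratio of Dam-EMR over GFP-Dam (y axis) in 10 equal segments of each chromosome (x axis, percent of its length), for the 3 rounds of each strain (thin lines with markers) and their mean (thick lines). The means of the 2 strains run close together, while round 1 of Y59C cec-4 reaches 1.88 on the left of chromosome II and 1.76 on the right of chromosome V.

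Each chromosome was divided into a left, a middle and a right zone, the outer zones being 33% of its length, and the mean centred ratio of each zone was compared with limma. None of the 18 zones passed the test between Y59C cec-4 and wild-type lamin (0 called, 0%; smallest adjusted p = 0.989, and 0 zones with an unadjusted p under 0.05). The changes ranged from -0.10 in the left zone of chromosome III to 0.13 in the left zone of chromosome II. The left zone of chromosome II stood at 0.15, 0.47 and 0.03 with wild-type lamin and at 1.08, -0.16 and 0.14 in the combination, and its 95% interval of the change ran from -0.60 to 0.87. The right zone of chromosome V stood at 0.09, 0.60 and 0.13 against 0.88, -0.11 and 0.13, with an interval from -0.69 to 0.75. In both zones the values of the strains overlapped, with round 1 of the combination highest.

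The zones of the X chromosome were narrower. Its left zone stood at -0.04, 0.01 and -0.05 with wild-type lamin and at -0.04, -0.003 and -0.05 in the combination, a change of -0.01 with an interval from -0.16 to 0.15. The middle zone of chromosome I stood at -0.07, -0.39 and -0.07 against -0.08, -0.18 and -0.11, so that it was below 0 in all 6 pairs, with an interval of the change from -0.16 to 0.27. For all 18 zones the interval lay within 2-fold. In the Y59C strain, the zone with the smallest p against wild-type lamin was the middle of chromosome II, at -0.52, -0.09 and -0.20 against -0.01, -0.14 and 0.02 with wild-type lamin and -0.02, -0.15 and -0.05 in the combination. The Y59C change of this zone was -0.23 (limma adjusted p = 0.748) and that of the combination -0.03 (adjusted p = 0.989). The Y59C comparison and the Y59C cec-4 against Y59C comparison had 0 called zones each (0%).

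**Figure D3:**
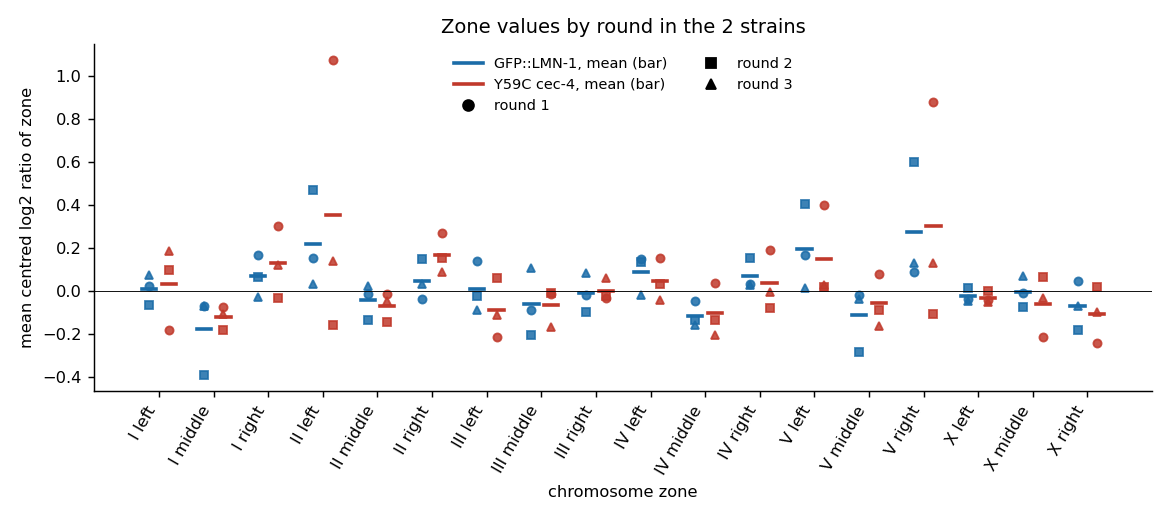
Mean centred log2 ratio (y axis) of each of 18 chromosome zones (x axis) in the 3 rounds of each strain (points) with their mean (bars). The values of the 2 strains overlap in the zones with the widest spread, the left zone of chromosome II and the right zone of chromosome V.

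The contrast between arms and centres summarises the peripheral position of the autosome arms. The mean ratio of the autosomal arms minus that of the centres was 0.13, 0.44 and 0.06 in rounds 1 to 3 with wild-type lamin (0.21 ± 0.20, SD, n = 3) and 0.30, 0.11 and 0.20 in Y59C cec-4 (0.20 ± 0.10, SD, n = 3). It was positive in all 6 pairs, and the groups overlapped. The difference was -0.01 (two-sided exact permutation test, p = 1; the smallest p that 3 against 3 can give is 0.1), and it took opposite signs in the rounds: 0.17, -0.33 and 0.14. Without round 2 of all strains the difference was 0.15, the combination being higher.

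In the Y59C strain the same contrast was 0.85, 0.24 and 0.24 (0.44 ± 0.35, SD, n = 3). It was 0.23 above wild-type lamin (exact permutation p = 0.5) and higher in 2 of 3 rounds. The combination was 0.24 below Y59C (exact permutation p = 0.4), by 0.55, 0.13 and 0.04 in rounds 1 to 3, so that it was lower in 3 of 3 rounds. Neither difference passed the test, and a design of 3 against 3 could not have done so. By chromosome, the contrast of the combination minus that of wild-type lamin ranged from -0.06 on chromosome V to 0.15 on chromosome II, and the exact permutation p over the 5 autosomes, the X and the autosomes together was 1 after Benjamini-Hochberg adjustment in all 7 tests. On the X chromosome both strains lay near 0, at -0.04 ± 0.08 (SD, n = 3) with wild-type lamin and -0.01 ± 0.07 (SD, n = 3) in the combination.

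Whole profiles were compared by the median absolute difference over the 100 kb bins. Profiles of the 2 strains lay 0.483 apart on average and profiles of rounds of one strain 0.522 apart (two-sided exact permutation test, p = 0.3). The wild-type lamin rounds lay 0.386 to 0.416 apart, below the mean between strains, and those of the combination 0.385, 0.718 and 0.829, the larger ones being the distances from round 1. All distances within a strain cross rounds, whereas those between strains include same-round pairs, and the permutation did not keep rounds together. Same-round distances between the combination and wild-type lamin were 0.632, 0.419 and 0.298. Same-round distances of Y59C from wild-type lamin were 0.732, 0.443 and 0.355, and those of the combination from Y59C 0.654, 0.381 and 0.355. The distance from wild-type lamin was smaller for the combination than for Y59C in all 3 rounds, a difference that was not tested because the distances share libraries. The Y59C Dam-EMR library of round 3 held 35370 reads.

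The rounds of one strain resembled each other little. Across the 1005 nuclear bins, Pearson's r between rounds was 0.15, 0.01 and 0.22 for wild-type lamin and -0.27, 0.03 and 0.21 for the combination. Between the strains it was 0.38, 0.19 and 0.36 within rounds 1, 2 and 3. These are descriptions across bins, which share library depth and are not independent. The median absolute deviation of a profile over bins was 0.33, 0.53 and 0.39 with wild-type lamin and 1.00, 0.52 and 0.42 in the combination. Wild-type lamin was widest in round 2 and the combination in round 1.

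Because no bin was called, the bins described next are those with the smallest p in each direction among bins with the same sign of the difference in all 3 rounds, 5 higher and 5 lower. Such a sign was shared by 102 bins upwards (10.2%) and 90 bins downwards (8.96%). None of the 10 bins passed the test (edgeR adjusted p = 0.992 for all 10). Over all tested bins, the 3 ratios of the combination lay wholly above those of wild-type lamin in 30 bins (2.99%) and wholly below in 21 bins (2.09%). Of these, 16 and 9 lay on the autosomal arms, 9 and 6 in the autosomal centres and 5 and 6 on the X. The 10 bins described are among the 51. Their selection used the contrast itself, so their values are a description.

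Among the bins with higher ratios in the combination, the first was chromosome I 12400001 to 12500000 in the right zone. Its genes include nhr-174, of the nuclear hormone receptor family, and oac-13, of an O-acyltransferase family. Wild-type lamin stood at 0.55, -0.48 and 0.29, Y59C at 1.56, 0.59 and 0.62, and the combination at 2.60, 0.90 and 1.21. The combination was above wild-type lamin in every round and Y59C lay between them in every round. In round 3 the Y59C value rested on only 11 Dam-EMR reads. The fitted log2 change was 1.53 (SE 0.45) for the combination and 0.84 (SE 0.45) for Y59C. The bin at X 200001, which holds set-28, a SET domain gene, and dbd-18, stood at -1.34, -0.29 and -0.39 with wild-type lamin and at 3.71, -0.07 and 1.57 in the combination. It rested on 10 to 78 Dam-EMR reads a library with wild-type lamin, and its estimate of 2.89 had an SE of 0.97.

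The bin at IV 12100001 holds mon-2, a gene of Golgi and endosome trafficking, the collagen gene col-129, the dynein light chain gene dlc-2 and ddb-1, the adaptor of a ubiquitin ligase. Wild-type lamin stood at 0.09, -0.36 and -0.58 and Y59C at -0.12, -0.39 and -0.25. The combination stood at 0.73, 0.70 and 0.25, above both of the other strains in every round. Round 3 of Y59C held 25 Dam-EMR reads there. The estimated change was 0.81 (SE 0.28) from wild-type lamin and 0.81 (SE 0.29) from Y59C. The bin at V 7200001, with fkb-3, a peptidyl-prolyl isomerase gene, had an estimated change of 1.07 (SE 0.39). The bin at X 12200001, with the carboxylesterase genes cest-8, cest-9.1 and cest-9.2, had one of 0.95 (SE 0.39).

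Among the bins with lower ratios, the first was IV 12600001 to 12700000, with efa-6, a guanine nucleotide exchange factor of an Arf GTPase, ark-1, a tyrosine kinase that restrains EGF receptor signalling, and the V-ATPase subunit gene vha-7. Wild-type lamin stood at 0.52, 0.26 and 0.16, Y59C at -0.54, -0.04 and -0.38, and the combination at -0.10, -0.92 and -0.53. Both Y59C strains lay below wild-type lamin in all rounds, round 3 of Y59C on 16 Dam-EMR reads. The estimates were -0.85 (SE 0.30) for the combination and -0.65 (SE 0.31) for Y59C. The bin at IV 16100001, which holds hlh-32, a basic helix-loop-helix gene, and gln-3, a glutamine synthetase gene, stood at 0.29, -0.12 and -0.36 with wild-type lamin, at -2.13, -1.33 and -0.27 in Y59C and at -1.22, -0.76 and -1.15 in the combination. The combination lay below wild-type lamin without overlap, and Y59C lay below it in rounds 1 and 2.

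In 3 other lower bins the Y59C strain did not lie below wild-type lamin in all rounds. The bin at V 17800001 in the right zone holds 10 chemoreceptor genes among 20 protein-coding genes, srh-287, srh-291, srh-292 and srh-296 among them. It stood at -0.05, 0.85 and 0.38 with wild-type lamin, at 1.96, 0.15 and 0.28 in Y59C and at -0.86, -1.85 and -0.26 in the combination. The combination was below both other strains in every round. Its round 1 value rested on 12 Dam-EMR reads, and the Y59C value of round 3 on 4. The estimates were -1.50 (SE 0.69) against wild-type lamin and -2.03 (SE 0.70) against Y59C. The bin at X 13900001, with the chemoreceptor gene sra-39 and the germ granule genes meg-1 and meg-2, stood at 0.16, -0.38 and -0.14, at 0.29, 0.17 and 0.24 and at -1.33, -0.47 and -0.56 in the 3 strains in the same order. The bin at II 6700001, with the cuticle collagen genes dpy-2 and dpy-10, had an estimated change of -0.71 (SE 0.30).

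**Figure D4:**
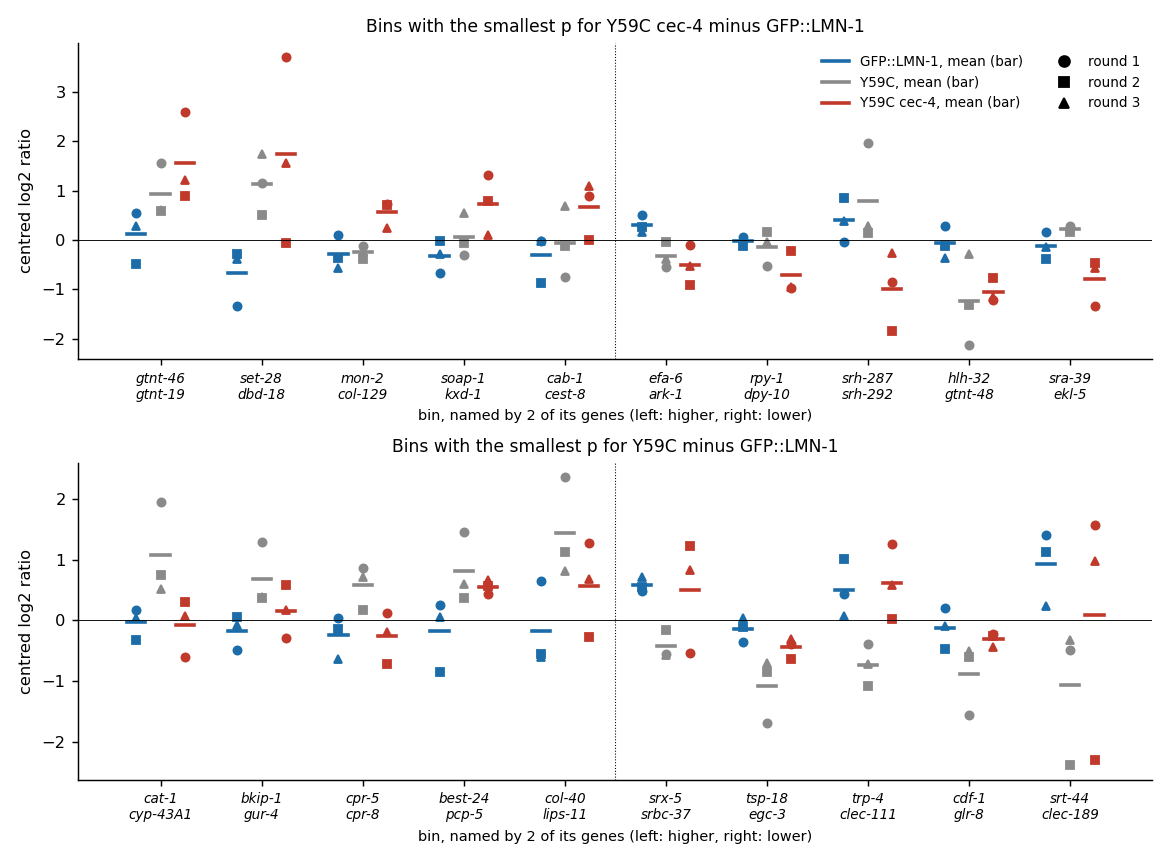
Centred log2 ratio (y axis) in the 3 rounds of 3 strains (points) with their mean (bars), in 10 bins of 100 kb chosen for the smallest p of Y59C cec-4 minus GFP::LMN-1 (upper) and 10 chosen for that of Y59C minus GFP::LMN-1 (lower); none of the 20 was called in either comparison. In the upper panel, whose bins were chosen by this very contrast, the points of Y59C cec-4 and GFP::LMN-1 do not overlap in any of the 10 bins. In the lower panel, chosen by the other contrast, they overlap in 9 of 10, against a background of 51 non-overlapping bins among 1004. Because of this choice the panels cannot be set against each other.

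To ask where the combination lay in the bins in which the Y59C strain stood farthest from wild-type lamin, the bins with the smallest p of that comparison were chosen in the same way, 5 in each direction. None passed the test there (edgeR adjusted p = 0.997 for all 10). Both comparisons use the same wild-type libraries, so that the values are set side by side only. The Y59C libraries that chose the bins also enter the step from Y59C to the combination, so that a value nearer to wild-type lamin follows in part from the choice and shows no return. In 9 of the 10 bins the ratios of the combination and of wild-type lamin overlapped, which is near the background, since they failed to overlap in 30 (2.99%) and 21 (2.09%) of all 1004 bins. The exception was III 7900001, where the combination stood at 0.44, 0.57 and 0.67 and wild-type lamin at 0.26, -0.85 and 0.06.

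The bin at X 5700001 holds cat-1, the vesicular monoamine transporter, and the cytochrome P450 gene cyp-43A1. It stood at 0.17, -0.32 and 0.05 with wild-type lamin, at 1.95, 0.75 and 0.52 in Y59C and at -0.59, 0.30 and 0.08 in the combination. The combination overlapped wild-type lamin and lay below Y59C in every round, round 3 of Y59C resting on 33 Dam-EMR reads. The estimates were 1.24 (SE 0.39) for Y59C, -0.03 (SE 0.39) for the combination and -1.26 (SE 0.39) for the step between them. The bin at V 700001, which holds 17 chemoreceptor genes among 27 protein-coding genes, srx-5 and srbc-37 among them, lay the other way. It stood at 0.48, 0.55 and 0.72 with wild-type lamin, at -0.56, -0.15 and -0.58 in Y59C and at -0.53, 1.22 and 0.83 in the combination.

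The bin at I 13900001, with trp-4, a mechanosensory channel gene, and the C-type lectin genes clec-111 and clec-112, stood at 0.44, 1.01 and 0.07 with wild-type lamin, at -0.39, -1.08 and -0.72 in Y59C and at 1.25, 0.02 and 0.59 in the combination. The combination again overlapped wild-type lamin and lay above Y59C in every round, although round 3 of Y59C held only 5 Dam-EMR reads there. The interval of this bin against wild-type lamin ran from -0.97 to 1.15, and that of X 5700001 from -0.82 to 0.77. The bin at II 1100001, with the collagen gene col-40 and the lipase genes lips-11 to lips-13, stayed between the other strains on average, with estimates of 1.86 (SE 0.80) for Y59C and 0.68 (SE 0.80) for the combination. In IV 15100001, with chemoreceptor and C-type lectin genes, the combination stood at 1.58, -2.30 and 0.99, close to Y59C (-2.39) in round 2 and above wild-type lamin in rounds 1 and 3.

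At 10 kb resolution 0 of 9735 bins (0%) were called by edgeR between the combination and wild-type lamin, with 447 bins (4.59%) at an unadjusted p under 0.05, 172 higher and 275 lower. The smallest adjusted p was 0.315. DESeq2 called 21 bins, 7 higher and 14 lower, and limma called 0, with 668 and 178 bins at an unadjusted p under 0.05. No bin had a 95% interval within 2-fold. The median bin held 25, 21 and 78 Dam-EMR reads with wild-type lamin and 4, 98 and 67 in the combination. The 3 ratios did not overlap between the strains in 341 bins with higher (3.5%) and 326 bins with lower values (3.35%) in the combination, and all 3 same-round differences had one sign in 1055 bins upwards (10.8%) and 996 downwards (10.2%). These counts depend in part on depth, since 1 read was added to every count and sets the ratio of an empty bin. At I 11470001 both strains held 0 Dam-EMR reads in round 1, yet the difference of that round was 3.13. Of 10028 nuclear bins, 344 held no Dam-EMR read in any round of the combination, 207 in any round of wild-type lamin and 861 in any round of Y59C, whose round 3 library was the shallowest of the series.

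The 10 kb bins with the smallest p were mostly bins in which the Dam-EMR reads of one strain were few or absent. The bin at I 3140001, with lpd-6 and dscc-1, held 109, 117 and 193 Dam-EMR reads with wild-type lamin and 1, 4 and 19 in the combination. The ratio was lower in every round, with an estimated log2 change of -5.05 (SE 1.10; edgeR adjusted p = 0.315), and that of Y59C from wild-type lamin was 0.26 (SE 0.99). The bin at V 14540001 (rike-1) held 181, 41 and 114 reads with wild-type lamin and 1, 0 and 0 in the combination. The bin at II 14720001, with glna-1, a glutaminase gene, held 68, 23 and 60 reads against 0, 0 and 0, which is at least 68.2-fold lower in the combination when the group is set to a floor of 3 reads over its libraries and each strain's Dam-EMR reads are scaled by its GFP-Dam reads in the bin.

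The bin at II 3630001 (the F-box gene fbxb-31) held 10, 18 and 151 reads against 0, most of them in round 3, and the bin at II 13090001 (the collagen gene col-86) held 42, 6 and 26 reads against 0. Bounds by the floor cover counting error only, and PCR reads are not independent molecules. In the other direction, the bin at I 11470001 (the nuclear hormone receptor genes nhr-113 and nhr-245) held 0 reads with wild-type lamin and 0, 52 and 74 in the combination, at least 39.1-fold higher by the same floor. The bin at IV 13850001 held 0 reads against 247 over the 3 rounds, 5 of them in round 1, at least 60.1-fold higher, and no protein-coding gene has its midpoint in it. The bin at IV 10010001 (magu-4 and the nucleoside transporter gene ent-7) held 2 reads in all against 58, 58 and 27. At X 11520001, the bin of the dosage compensation gene sdc-2 held 3, 0 and 7 reads against 41, 208 and 36, with an estimate of 5.54 (SE 1.39). The bin at V 14630001 held 7, 5 and 5 reads against 47, 284 and 213, with one of 4.57 (SE 1.26). None of these bins was called by edgeR.

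Between Y59C and wild-type lamin, 2 of 9735 bins were called by edgeR (0.0205%), both lower in Y59C. At X 12690001, the bin with ugt-50, a UDP-glucuronosyltransferase gene, and nhr-26 held 43, 26 and 151 Dam-EMR reads with wild-type lamin, 0, 0 and 0 in Y59C and 11, 124 and 57 in the combination (edgeR adjusted p = 0.0482 for Y59C). At X 11110001, the bin with the hedgehog-related gene grd-1 and the neuropeptide-like gene nlp-66 held 52, 63 and 127 reads, 0, 1 and 0 reads and 5, 107 and 331 reads in the same order (edgeR adjusted p = 0.0338 for Y59C). In round 3 of Y59C the median 10 kb bin held 1 Dam-EMR read and 42.5% of bins were empty, so a 0 there says little. In both bins the reads were near absent in rounds 1 and 2 of Y59C and present in every round of the other strains. The change of the combination from wild-type lamin was -0.69 (SE 1.08) in the first and -0.59 (SE 0.93) in the second, and the adjusted p between the combination and Y59C was 0.0516 in both, above the threshold, in bins that the same Y59C libraries had chosen. The calls depended on the processing: with the replicate number as a block, 0 bins were called, as with RLE size factors, library totals or limma, while DESeq2 called 117. The block was a term per round shared by both fusions and all strains, so it did not pair the ratios of a round. Both were also lost when any one round of wild-type lamin was left out, and without round 3 of Y59C, whose Dam-EMR library held a median of 19 reads per 100 kb bin, 45 bins were called.

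Genes of the lamina and of the constructs were read in their 10 kb bins. The lmn-1 bin stood at 2.76, 3.10 and 2.19 with wild-type lamin, at 5.59, 4.77 and -0.86 in Y59C and at 0.64, 1.98 and 0.88 in the combination. The combination lay below wild-type lamin without overlap, with an estimate of -1.65 (SE 1.25; edgeR adjusted p = 1.00). All strains carry a tagged lamin whose reads could be counted in this bin, and likewise Dam::EMR-1 for emr-1 and the promoters for hsp-16.41 and myo-3, so these bins are uncertain. The emr-1 bin stood at 0.00059, -0.87 and 0.56 against 1.40, 1.12 and 0.49, and the hsp-16.41 bin at 1.36, 0.27 and 0.95 against 2.13, 1.71 and 0.58; both overlapped.

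The bin of cec-4 held reads in all strains, since the 10 kb bin is larger than the gene, and stood at -0.82, -0.01 and 0.94 with wild-type lamin and at -0.74, 1.11 and 0.52 in the combination. It does not check the deletion. The myo-3 bin, a muscle myosin, stood at 0.43, 0.52 and -0.21 with wild-type lamin, at -2.15, -0.26 and -1.53 in Y59C and at -2.35, 0.57 and 0.41 in the combination. In rounds 2 and 3 the combination lay with wild-type lamin and in round 1 with Y59C. The unc-54 bin stood at -0.41, 0.61 and 1.27 against -1.25, 1.33 and 1.22, and the baf-1 bin, which encodes the chromatin-binding partner of LEM-domain proteins, at 0.62, -1.37 and -1.07 against 0.44, -0.89 and 0.11. None of these bins was called.

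The 10 kb bins of 23 gene lists were described by counts and medians. No bin of any list was called by edgeR between the combination and wild-type lamin, as in the table as a whole (0%). Over all tested bins the median change was -0.04, and 48.4% were above 0. The list medians ranged from -0.31 for ribosomal protein genes to 0.45 for pharyngeal muscle genes. When the reads of a list were summed in each library, the ratios of the 2 strains overlapped in all 23 lists.

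The body wall muscle list, with structural genes of the sarcomere and its attachments, covered 53 tested bins, of which 21 had an estimate above 0 and the median was -0.04. Its summed ratio was -0.21, -0.03 and 0.12 with wild-type lamin and -0.89, 0.21 and 0.20 in the combination. It was lower in round 1 and higher in rounds 2 and 3. The Y59C strain had a mean of -0.40 ± 0.74 (SD, n = 3), against -0.04 ± 0.17 with wild-type lamin and -0.16 ± 0.63 in the combination. The bin with the smallest p of the list was that of egl-19, the muscle L-type calcium channel, at -0.50, -3.45 and -0.71 against 2.42, -0.23 and -0.45 (estimate 2.35, SE 1.07; edgeR adjusted p = 1.00). The strains did not overlap there, but only narrowly, at -0.50 against -0.45. The value of -3.45 rested on 4 Dam-EMR reads.

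Nuclear envelope and anchor genes covered 40 bins, of which 27 were above 0, with a median of 0.30. Their summed ratio was 0.12, 0.07 and 0.13 with wild-type lamin and 0.46, 0.33 and 0.05 in the combination, overlapping by round 3, and the Y59C mean was 0.60 ± 0.46 (SD, n = 3). The smallest p of the list was that of the nucleoporin gene npp-1, whose bin stood at 0.75, -5.49 and -1.05 against 5.00, 0.75 and -0.33 (estimate 4.13, SE 1.53; edgeR adjusted p = 0.896). Its value of -5.49 came from 0 Dam-EMR reads and so was set by the added read. The bin of lem-2, which encodes the other LEM-domain protein of the worm's inner nuclear membrane, stood at 1.82, -1.26 and 1.03 against -1.81, -0.91 and -1.25 (estimate -2.38, SE 0.97; edgeR adjusted p = 0.942). The value of -1.81 rested on 2 Dam-EMR reads. The bin of npp-13, also a nucleoporin gene, stood at 1.53, 0.51 and -0.10 against -0.31, -3.17 and -3.58 and did not overlap (adjusted p = 0.983). Its values in the combination rested on 7, 10 and 7 Dam-EMR reads. Heterochromatin factors covered 19 bins, 7 above 0, with a median of -0.09.

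Families of the chromosome arms were read as lists too. Chemoreceptor genes covered 771 tested bins, 359 above 0, with a median of -0.12, and 20 higher and 32 lower bins had an unadjusted p under 0.05, against 172 higher and 275 lower of all 9735 bins (4.59%). Their summed ratio was 0.10, 0.37 and 0.04 with wild-type lamin and 0.65, -0.14 and 0.11 in the combination. The combination lay above in rounds 1 and 3 and below in round 2, as in the arms. F-box genes had a median of 0.14 over 207 bins, C-type lectins 0.01 over 168 and nuclear hormone receptors -0.11 over 198. In the bin of fbxa-199, an F-box gene, wild-type lamin stood at -0.90, -2.82 and -1.16 and the combination at 0.83, 3.28 and 2.99 (estimate 3.68, SE 1.16; edgeR adjusted p = 0.88). The value of -2.82 rested on 1 Dam-EMR read.

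Ribosomal protein genes, which are expressed in every cell, covered 75 bins, of which 23 were above 0. Their summed ratio was -0.04, 0.27 and 0.25 with wild-type lamin and -0.63, 0.19 and 0.19 in the combination, lower in all 3 rounds but overlapping. The bin of rpl-26 stood at 1.83, 1.69 and 1.26 against -0.04, -2.83 and -1.53 (estimate -3.09, SE 0.85; edgeR adjusted p = 0.753), without overlap. The hypodermal list had 11 of 18 bins above 0 and a median of 0.26. In it 1 non-overlapping bin was higher and 2 were lower, against 3.5% and 3.35% of all 9735 tested bins, too few to set the list apart. The lower ones were the bins of lin-26, a zinc finger factor of epithelia, and dpy-7, a cuticle collagen. The lin-26 bin stood at 0.55, 0.74 and 0.71 against -2.94, -0.32 and -0.70 (estimate -1.87, SE 0.73; adjusted p = 0.931), the value of -2.94 resting on 3 Dam-EMR reads. In the bin of ceh-10, a homeodomain factor of neurons, the order was the opposite, with -1.25, 0.92 and -0.92 against 1.25, 2.91 and 2.47 (estimate 2.58, SE 0.93; adjusted p = 0.884). The genes were picked by their p in these data and none was called.

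**Figure D5:**
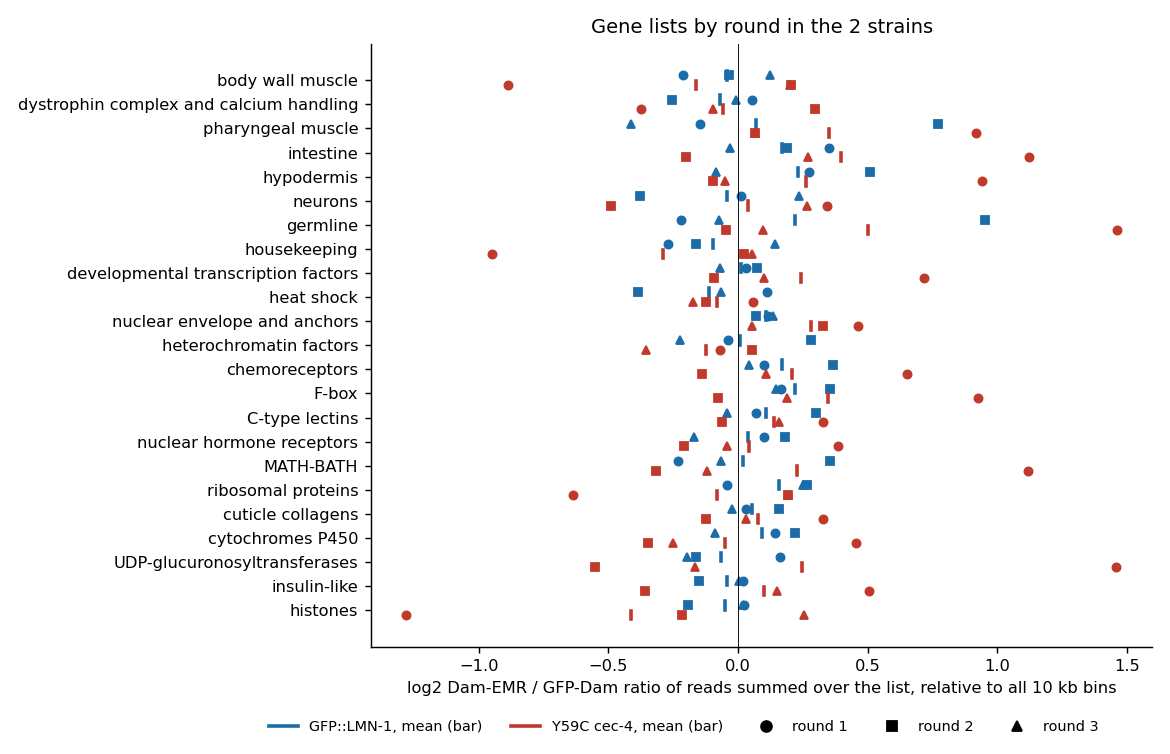
Log2 ratio of Dam-EMR over GFP-Dam reads summed over the 10 kb bins of each of 23 gene lists (y axis), relative to all 10 kb bins (x axis), in the 3 rounds of each strain (points) with their mean (bars). The strains overlap in all 23 lists, and round 1 of Y59C cec-4 lies at the outside of many lists, as for germline (1.46) and histones (-1.28).

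The authors' deposited table of log2 ratios gives 1 value per strain and bin, which equals the log2 of the mean over rounds of the library-scaled ratios in all 1005 nuclear bins of both strains (to within 0.001). In the authors' deposited table the difference between Y59C cec-4 and wild-type lamin had a median of 0.20. Of the bins, 90% lay between -0.35 and 0.92, and 28 lay over 2-fold away from that median. The deposited values are not centred on the median bin, and a mean of ratios weights rounds with high ratios more than a mean of log2 ratios does.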

How the data were processed

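The files hold read counts per bin of 10 kb and 100 kb in 24 libraries and log2 ratios per strain, both deposited by the authors; the reads were mapped to build ce11 per the submitters' processing notes, and no source used here names the aligner or counter. Counts were used as deposited, without mitochondrial bins and without 2 bins of 10 kb that hold the same value in all libraries. These 2 bins, III 6720001 and V 8650001, lie inside the 100 kb bins III 6700001 and V 8600001, which held an excess of reads. The ratios printed are log2 of library-scaled counts with 1 read added, set to 0 at the median nuclear bin of each pair. Changes were tested with edgeR 4.0.16 (R 4.3.3; quasi-likelihood test, TMM scaling, filter on low counts, 8 groups in 1 fit) with Benjamini-Hochberg adjustment and a threshold of 0.05. DESeq2 1.42.0, limma 3.58.1, other scalings, no filter and the leaving out of libraries were alternatives. Zones were tested with limma, and single values with exact permutation tests. Bins are named by the rule of the smallest p per direction with the same sign in 3 rounds where fewer than 5 were called, and list genes by smallest p. Genes were assigned to bins by midpoint with the RefSeq annotation of WBcel235, used for names. The code of the tests was checked on simulated data with known changes, and no power to find changes in these data is drawn from that check.

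The series text ties replicate numbers to rounds grown in parallel, so numbers pair the samples. Same-round deviations of the combination and wild-type lamin correlated at 0.27, -0.03 and 0.30. Deviations of unlike rounds correlated at -0.34 to 0.24, so the correlations by themselves do not establish the pairing. The members, gene lists and tests were chosen with earlier results of these data known. P-values measure the spread between rounds, which the edgeR fit pooled over both fusions and all strains in each bin. Intervals and floors do not cover PCR duplication.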

Additional observations from a re-analysis of the deposited data

Results flagged for a closer look

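Mitochondrial DNA has no contact with the nuclear envelope and was used in no comparison, but its bins held a few reads. Summed over rounds, the Dam-EMR libraries of wild-type lamin held 13.8 mitochondrial reads per 1000000 reads, against 0.907 in the GFP-Dam libraries of that strain. The Dam-EMR libraries of Y59C cec-4 held 3.15 per 1000000, against 0.242 in GFP-Dam. The values rest on 9, 0 and 54 Dam-EMR reads with wild-type lamin and 6, 0 and 18 in the combination. In round 2 the order was the reverse: Dam-EMR held 0 reads in both strains, while GFP-Dam held 14 reads with wild-type lamin (5.13 per 1000000) and 1 in the combination.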

How the results depend on the processing

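Between the combination and wild-type lamin, 0 bins were called at 100 kb under all 18 alternatives, and 0 at 10 kb under 17 of 18. The exception was DESeq2, which called 21 (lowest DESeq2 adjusted p = 4.12e-21), so the tools disagreed at 10 kb. The 10 named bins kept direction and stayed uncalled in 180 of 180 values. Of the zones, 237 of 306 values kept their sign and 69 changed it, none called (lowest adjusted p 0.880). For Dam-EMR alone DESeq2 called 1 bin. The 2 calls of Y59C at 10 kb became 0 with RLE size factors, library totals, limma, only the compared libraries or a replicate block, 117 with DESeq2 and 6 without bins over 1% of a library. They ranged from 0 to 45 on leaving out replicates. The combination against Y59C gave 14 without the filter, 324 with DESeq2 and 0 to 60 on leaving out replicates. The arm contrast, -0.01, turned to 0.0049 with arms as the outer 25% and 0.014 with medians, and ranged from -0.10 to 0.15 on leaving out rounds. Without round 2 the combination (0.30 and 0.20) lay above wild-type lamin (0.13 and 0.06) without overlap. The exact permutation p was then 0.333, the smallest that 2 against 2 can give. The profile distance difference ranged from -0.0848 to -0.0218. With the replicate block the ratio had 0 calls at 100 kb (20 bins at an unadjusted p under 0.05) and 0 at 10 kb (409 bins), and the block changed no call other than those of Y59C. This block is shared by both fusions, so the pairing of same-round ratios was not tested per bin. Leaving out the GFP-Dam library of round 3 of the combination, chosen after seeing the data, gave 0 calls at 100 kb (9 bins at an unadjusted p under 0.05). At 10 kb the median bin of the shallowest compared library held 4 reads.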
